A study of Mus musculus with 16 samples.

Results

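Toll-like receptors are membrane proteins of innate immune cells that bind microbial and endogenous ligands and start a signalling cascade. Receptors at the cell surface bind mainly lipopeptides and lipopolysaccharide, and receptors in endosomes bind nucleic acids. Most of them recruit the adaptor Myd88, which assembles Irak kinases and Traf6 and leads to NF-kB and interferon regulatory factors. In the brain they are expressed mainly by microglia, the resident macrophages that surround amyloid plaques, and they are studied as sensors of amyloid. Described here are the 10 genes Tlr1, Tlr2, Tlr3, Tlr4, Tlr6, Tlr7, Tlr9, Tlr13, Cd14 and Myd88, chosen by name among the 47593 genes of the count table, and followed in all 16 libraries by sex and diet. All 10 passed the filter on low counts that 16553 genes passed.

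The libraries were made from cortical poly(A) RNA of heterozygous 5xFAD mice on a C57BL/6-SJL hybrid background. These mice carry human transgenes with familial Alzheimer's disease mutations under the neuron-specific murine Thy1 promoter, and develop amyloid plaques. Each sex had 4 vehicle and 4 rapamycin libraries, all from mice with the transgenes, so there was no group without them. Rapamycin, an inhibitor of the kinase mTOR, was fed at 14 ppm of active compound from 2 to 5 months of age, and vehicle mice received chow with the encapsulation carrier. The labels do not say whether each library is 1 animal. The study's text speaks of pooled samples and its legends of 4 mice per group, so p-values measure the spread between libraries. By label, 5 libraries form batch 2, namely female rapamycin 4 and 5 and the libraries numbered 4 of the other 3 groups, and 11 form batch 1. What a batch is was not given. Libraries held 16393501 to 20593089 counted read pairs. The library labelled male rapamycin 4 held 9935 read pairs of Xist and 0 of Y-linked genes, against its label, and is called by its label throughout. Rapamycin libraries had mitochondrial shares of 3.75% to 6.99% (median 4.88%), and vehicle libraries 2.64% to 5.47% (median 3.74%).

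The tissue and its microglia were checked with marker genes. The 8 cortical neuron markers summed to 5150 to 8306 CPM per library with rapamycin and to 5832 to 7726 CPM with vehicle. The 16 microglial markers, among them Csf1r, P2ry12 and the transcription factor Spi1, summed to 513 to 957 CPM with rapamycin (median 798) and to 651 to 1276 CPM with vehicle (median 879), so the ranges overlapped. The 8 neutrophil and monocyte markers summed to at most 7.77 CPM in any library and the 6 B and T cell markers to at most 1.27 CPM, and none of these 14 passed the filter. In bulk tissue, fewer cells of a type and less RNA per cell cannot be told apart.

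Promoters are shown because several members varied together with microglial genes (values follow), and PU.1, which Spi1 encodes, is a factor that microglia and other macrophages need. RefSeq promoters on GRCm38.p6, each from 250 bases before to 50 bases after an annotated start, were given for 7 of the 10 members, with 2 starts each for Tlr1 and Tlr6, and were absent for Tlr4, Tlr7 and Cd14. Both strands were searched for GAGGAAG (the PU.1 core), GGGACTTTC or GGGAATTTC (NF-kB), and GAAANNGAA (the interferon-stimulated response element). Windows of 80 bases that cover no annotated exon are printed 5′ to 3′ on the gene's strand, with each match in capitals, also where it lies on the other strand.
Tlr1, chr5:64933564-64933643, minus strand, PU.1: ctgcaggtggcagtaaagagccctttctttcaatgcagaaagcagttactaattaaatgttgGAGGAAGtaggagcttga
Tlr9, chr9:106222450-106222529, plus strand, PU.1: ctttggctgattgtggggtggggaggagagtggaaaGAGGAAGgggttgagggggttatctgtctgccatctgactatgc
Tlr13, chrX:106143124-106143203, plus strand, PU.1: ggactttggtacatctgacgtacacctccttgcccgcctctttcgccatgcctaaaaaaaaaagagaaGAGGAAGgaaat
Tlr6, chr5:64959234-64959313, minus strand, 2 overlapping response elements on the other strand: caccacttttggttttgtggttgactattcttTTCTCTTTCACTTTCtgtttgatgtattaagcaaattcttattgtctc
Myd88, chr9:119340042-119340121, minus strand, response element: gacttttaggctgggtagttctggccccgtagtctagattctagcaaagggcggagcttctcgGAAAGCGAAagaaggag

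The PU.1 core thus lay in the promoters of Tlr1, Tlr9 (which holds a further match inside its annotated exon) and Tlr13, and the response element in those of Tlr6 and Myd88. Neither was found in the promoters of Tlr2 and Tlr3, and the NF-kB motif in none of the members' promoters. Of all 32851 RefSeq promoters, 13.6% held the PU.1 core, 8.56% the response element and 0.612% the NF-kB motif. These matches are a description of letters and not of binding.

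Levels were first ordered in CPM per kb of exon, which allows genes of different length to be compared. Cd14, a membrane-anchored co-receptor that passes lipopolysaccharide to Tlr4, was highest with a median of 4.05 CPM per kb over 16 libraries (range 2.65 to 7.09). Tlr3, the endosomal receptor of double-stranded RNA, followed with 2.65 (1.39 to 3.70), and Myd88 with 2.08 (1.86 to 3.11). Tlr7, Tlr2, Tlr13 and Tlr9 formed a middle range, at medians of 1.31, 1.22, 0.99 and 0.77 CPM per kb. Tlr1, Tlr4 and Tlr6 were lowest, at medians of 0.34, 0.30 and 0.21 CPM per kb. Myd88 exceeded Tlr7 in 16 of 16 libraries and Tlr9 exceeded Tlr1 in 15 of 16, whereas Tlr7 exceeded Tlr2 in 9 of 16, so these neighbours were not separated. The ranges of all neighbours other than Myd88 and Tlr7 overlapped.

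**Figure D1:**
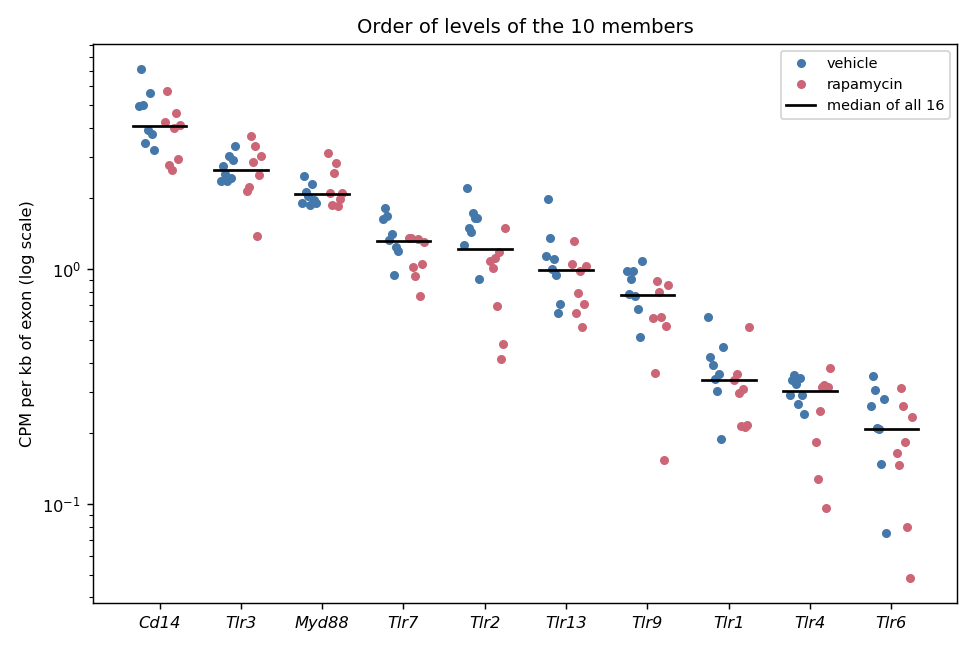
CPM per kb of exon (log scale) of the 10 members in descending order of the median, with 1 point per library (8 vehicle, 8 rapamycin) and a line at the median of all 16. The medians of Cd14, Tlr3 and Myd88 sit above those of the middle range of Tlr7 to Tlr9. The medians of Tlr1, Tlr4 and Tlr6 lie near 0.3 CPM per kb or below, with single libraries of Tlr1 up to 0.63.

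The counts behind these levels set their precision. Tlr3 held a median of 214 read pairs per library, with which counting alone gives a coefficient of variation of 6.82%. Tlr6 held a median of 13 read pairs and 3 at the lowest, with a counting variation of 26.8%, and Tlr1 and Tlr4 held medians of 20.5 and 29.5. No member was at 0 in any library. Counting left out read pairs that match several places, so similar stretches of the neighbouring paralogs Tlr1 and Tlr6 (chr5:64924679-64933563 and chr5:64952031-64960097, GRCm38) may be undercounted. Of the exon bases of Myd88, 11.3% are shared with Acaa1a, and pairs overlapping both genes were left out. No exon base of the other 9 members was shared with another gene.

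The first comparison asked how rapamycin libraries differed from vehicle libraries over both sexes, by edgeR's quasi-likelihood test with sex and batch as terms. Of the 10 members, 0 had an adjusted p under 0.05, where 13.3% of all genes tested did (Benjamini-Hochberg over all genes). At an unadjusted p under 0.05, 2 members (Tlr2 and Tlr9) were lower with rapamycin, where 14.7% of all genes were. DESeq2 with the same terms gave both an adjusted p under 0.05, and the share of all genes for which it did was not counted. Log2 fold changes were below 0 for 9 of 10 members, where they were for 47.7% of all genes, with a median of -0.29 beside 0.02 over all genes. The 2 diets overlapped in CPM for every member, while they did not overlap for 0.489% of all genes.

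**Figure D2:**
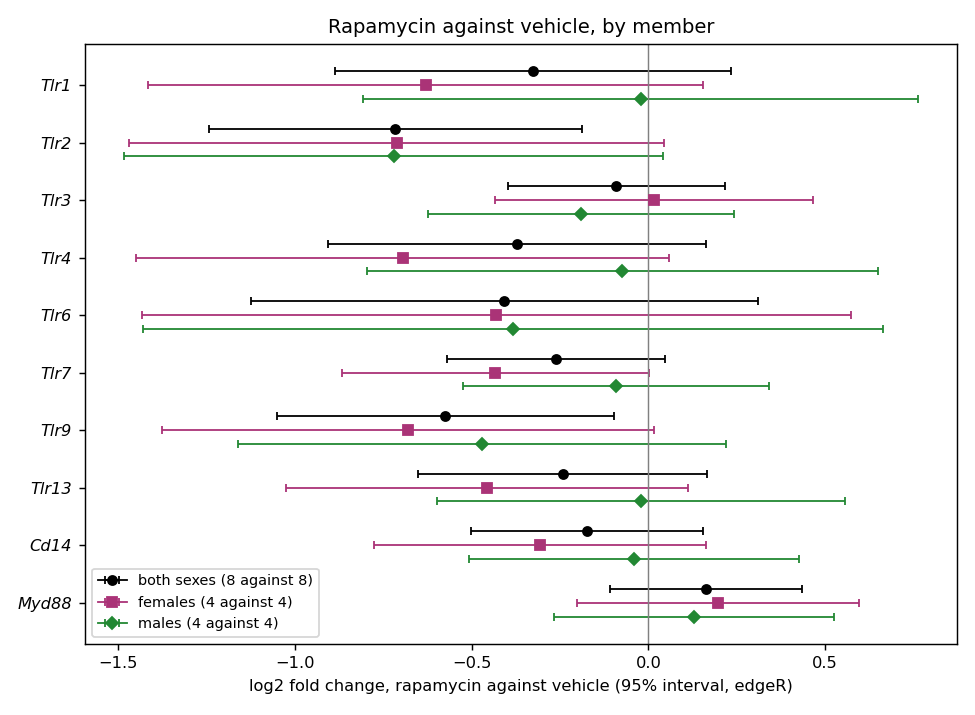
Log2 fold change of each member, rapamycin against vehicle, with its 95% interval from edgeR, over both sexes (8 against 8 libraries) and in females and in males (4 against 4). Over both sexes the intervals of Tlr2 and Tlr9 lie below 0, and in each sex alone every interval reaches or crosses 0.

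Of the surface receptors, Tlr2 binds lipopeptides together with Tlr1 or Tlr6, and is on chr3:83836272-83841767. Tlr2 stood at 3.81, 6.67, 4.52 and 4.33 CPM in the female vehicle libraries and at 3.27, 3.05, 3.37 and 2.11 CPM in the female rapamycin libraries. It stood at 5.23, 4.95, 4.96 and 2.74 CPM in the male vehicle libraries and at 3.55, 1.25, 1.45 and 4.53 CPM in the male rapamycin libraries. In females, with 4 against 4 libraries, the diets did not overlap. For how many of all genes that holds in females was not counted. In males the diets overlapped because vehicle library 4 lay below rapamycin library 1 and the library labelled rapamycin 4. Over both sexes the log2 fold change of Tlr2 was -0.72 (SE 0.25, 95% interval -1.24 to -0.19, adjusted p = 0.0651 in edgeR), and all 8 rapamycin libraries lay below the vehicle median of 4.74 CPM. The call turned on 2 libraries: the adjusted p of edgeR was 0.0485 without male vehicle 4 and 0.0318 without the library labelled male rapamycin 4. Differences of mean log2 CPM within sex and batch were -0.61 and -0.67 in female batches 1 and 2, -1.38 in male batch 1, and 0.70 in male batch 2, which sets those 2 libraries against each other. Batch 1 alone gave -0.99 with an adjusted p of 0.0451 in edgeR, and batch 2 alone -0.08.

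The partners of Tlr2 were measured with few reads. Tlr6 stood at 0.98, 1.30, 1.14 and 0.78 CPM in female vehicle libraries and at 0.61, 0.54, 1.16 and 0.98 CPM in female rapamycin libraries. In males it stood at 0.77, 0.55, 1.04 and 0.28 CPM with vehicle and at 0.69, 0.30, 0.18 and 0.88 CPM with rapamycin. The diets overlapped in both sexes, and the 3 lowest values were in male libraries. The log2 fold change of Tlr6 over both sexes was -0.41 (95% interval -1.12 to 0.31, adjusted p = 0.447 in edgeR), and it changed sign to 0.89 in batch 2 alone. Tlr1 ranged from 0.63 to 2.10 CPM with vehicle (median 1.25) and from 0.71 to 1.91 CPM with rapamycin (median 1.01), with a log2 fold change of -0.33 (adjusted p = 0.434 in edgeR).

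Tlr4 (chr4:66827584-66930284), the receptor of lipopolysaccharide, was even among vehicle libraries, at 1.61, 1.87, 1.96 and 1.80 CPM in females and 1.49, 1.90, 1.61 and 1.34 CPM in males. With rapamycin it spread from 0.53 to 2.11 CPM, and the 3 lowest libraries were male rapamycin 2 (0.53), female rapamycin 2 (0.71) and female rapamycin 1 (1.02). These 3 also had the largest mitochondrial shares of all libraries, at 6.88% to 6.99%. The log2 fold change of Tlr4 was -0.37 (95% interval -0.90 to 0.16, adjusted p = 0.344 in edgeR). With the mitochondrial share as a covariate it was 0.09, and with the exon length slope (the trend of a library's deviations with exon length) 0.14.

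Cd14 (chr18:36725074-36726736) ranged from 5.03 to 11.1 CPM with vehicle (median 6.97) and from 4.16 to 9.03 CPM with rapamycin (median 6.37). Its log2 fold change was -0.17 (95% interval -0.50 to 0.16, adjusted p = 0.482 in edgeR). Its highest library was female vehicle 2, as for Tlr2, Tlr6, Tlr7 and Tlr13, and that library also had the highest sum of microglial markers, 1276 CPM.

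Among the endosomal receptors, Tlr9 (chr9:106222598-106226883) binds unmethylated CpG DNA. Tlr9 stood at 3.42, 2.71, 3.16 and 3.43 CPM in female vehicle libraries and at 2.14, 1.25, 3.10 and 2.78 CPM in female rapamycin libraries. In males it stood at 2.68, 2.35, 1.79 and 3.75 CPM with vehicle and at 2.17, 0.53, 1.99 and 2.99 CPM with rapamycin. The lowest library, male rapamycin 2, held 9 read pairs of Tlr9, and the 2 diets overlapped in both sexes. The log2 fold change was -0.57 (SE 0.23, 95% interval -1.05 to -0.10, adjusted p = 0.0960 in edgeR), and DESeq2 gave an adjusted p of 0.0447. Within sex and batch the differences of mean log2 CPM were all below 0, at -0.87 and -0.22 in female batches 1 and 2 and -0.69 and -0.32 in male batches 1 and 2. The lowest batch 1 libraries are again the 3 with the largest mitochondrial shares together with male vehicle 3 and male rapamycin 3, and with that share or the exon length slope as a covariate the log2 fold change was -0.22 or -0.12.

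Tlr7 (chrX:167304929-167330558) binds single-stranded RNA. It stood at 6.69, 7.41, 6.86 and 5.41 CPM in female vehicle libraries and at 5.56, 5.55, 4.15 and 3.80 CPM in female rapamycin libraries. In males it stood at 5.77, 3.85, 5.07 and 4.87 CPM with vehicle and at 5.49, 3.14, 4.28 and 5.30 CPM with rapamycin. In females only vehicle library 4 fell within the rapamycin range, and in males the diets overlapped. All 8 rapamycin libraries lay below the vehicle median of 5.59 CPM, and the log2 fold change was -0.26 (95% interval -0.57 to 0.05, adjusted p = 0.239 in edgeR).

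Tlr13 (chrX:106143204-106160493), a mouse receptor of bacterial ribosomal RNA, ranged from 2.65 to 8.09 CPM with vehicle (median 4.30) and from 2.31 to 5.38 CPM with rapamycin (median 3.62). Its log2 fold change was -0.24 (adjusted p = 0.427 in edgeR). Tlr3 (chr8:45395665-45410608), which signals without Myd88, ranged from 10.5 to 14.7 CPM with vehicle (median 11.6) and from 6.11 to 16.3 CPM with rapamycin (median 11.8). Its log2 fold change was -0.09 (95% interval -0.40 to 0.22, adjusted p = 0.714 in edgeR). The rapamycin range of Tlr3 contained the vehicle range.

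Myd88 (chr9:119335934-119341411), the shared adaptor, was the only member with a log2 fold change above 0, at 0.16 (95% interval -0.11 to 0.43, adjusted p = 0.419 in edgeR). It ranged from 4.82 to 6.45 CPM with vehicle (median 5.18) and from 4.80 to 8.01 CPM with rapamycin (median 5.45). Its SD over the 16 libraries, 0.22 on the log2 CPM scale, was below that of the other 9 members, which ran from 0.33 for Tlr7 and Tlr3 to 0.67 for Tlr6.

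**Figure D3:**
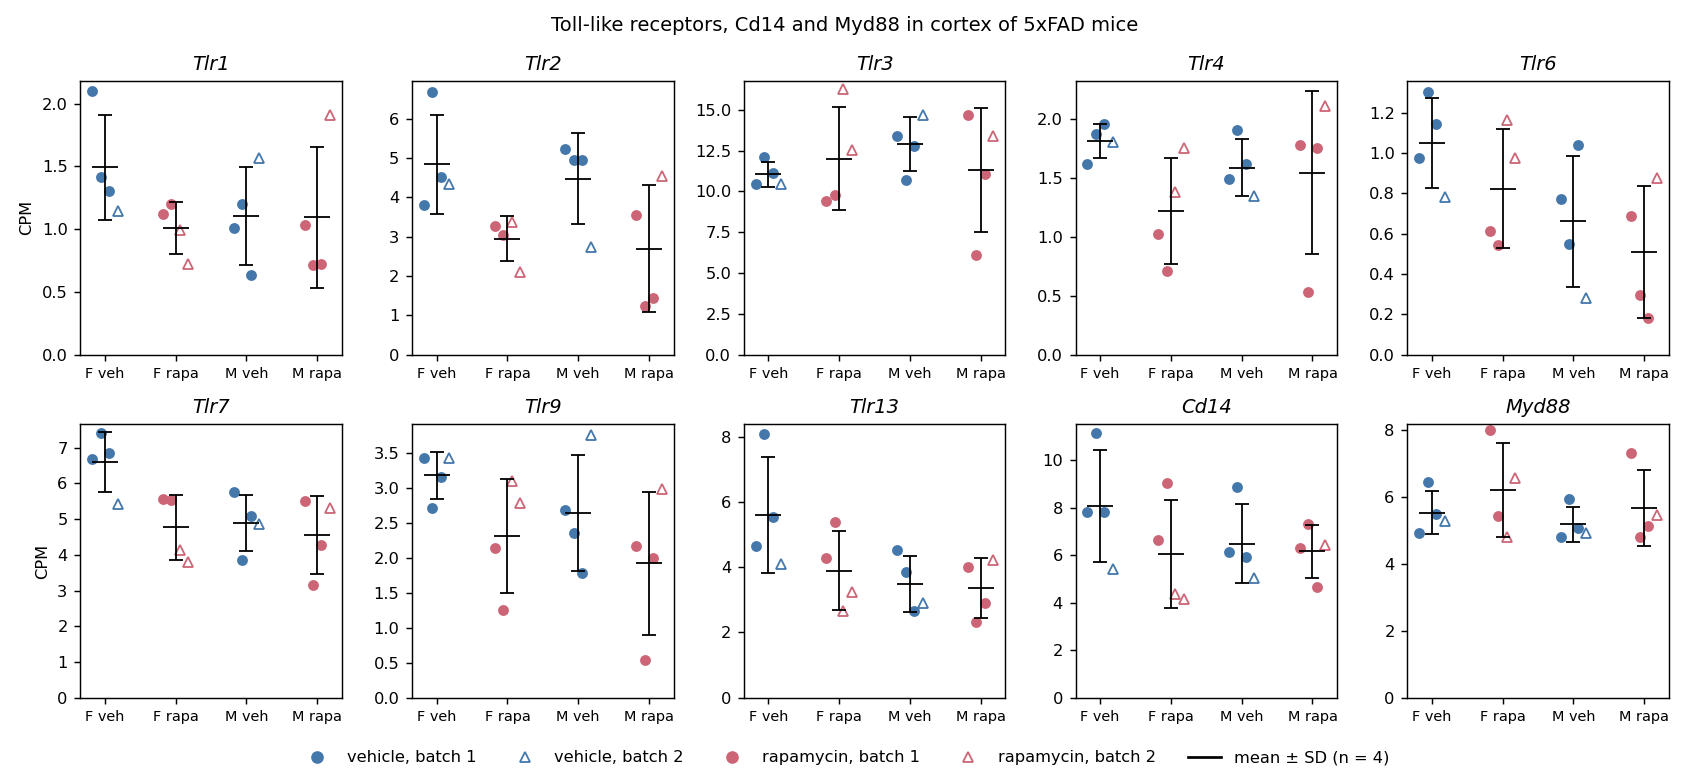
CPM of each member in every library by group (F female, M male, veh vehicle, rapa rapamycin; filled circles batch 1, open triangles batch 2), with the group mean and SD (n = 4). For Tlr2 the female groups do not overlap (the share of all genes for which that holds was not counted). In males the batch 2 vehicle library of Tlr2 (2.74) lies below the batch 2 rapamycin library (4.53).

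In females alone 0 members had an adjusted p under 0.05 in edgeR, where 0.0121% of all genes did. At an unadjusted p under 0.05 there were 0 members, where 3818 of 16553 genes were under it. The count of DEGs over all genes (adjusted p under 0.05 and at least 1.5-fold) rested on female rapamycin 4. Without that library DEGs went from 2 to 941 while the members stayed at 0. The log2 fold changes of edgeR in females were -0.71 for Tlr2 (adjusted p = 0.243), -0.69 for Tlr4 (0.252), -0.68 for Tlr9 (0.226), -0.63 for Tlr1 (0.318), -0.46 for Tlr13 (0.318) and -0.43 for Tlr7 (0.217). In males 0 members had an adjusted p under 0.05 in edgeR, where 0% of all genes did. At an unadjusted p under 0.05 there were 0 members in males, where 1990 of 16553 genes were under it. There the log2 fold changes were -0.72 for Tlr2 (adjusted p = 0.429 in edgeR) and -0.47 for Tlr9 (0.561), while those of Tlr1, Tlr4, Tlr7, Tlr13 and Cd14 lay between -0.09 and -0.02. Without the library labelled male rapamycin 4, the male value of Tlr2 was -1.17 (adjusted p = 0.703 in edgeR) and that of Tlr1 -0.45. The male values of Tlr13, Tlr7 and Cd14 were then -0.31, -0.26 and -0.26, so their small values rested on that library. DESeq2 gave 0 members in either sex as well.

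Whether the diet difference itself differed between the sexes was tested by an interaction term. It gave 0 members with an adjusted p under 0.05 (edgeR, 0% of all genes), and DESeq2 gave 0 adjusted calls. At an unadjusted p under 0.05 in edgeR there were 0 members, where 360 of 16553 genes were under it. The member with the smallest p was Tlr4, with a female minus male difference of -0.62 in log2 fold change (95% interval -1.65 to 0.41, adjusted p = 0.999 in edgeR). For Tlr2 the difference was 0.01 with an interval of -1.03 to 1.05, which does not show that the sexes were alike. Without the library labelled male rapamycin 4 these differences were -0.47 for Tlr4 and 0.56 for Tlr2 (adjusted p = 0.997 for each in edgeR).

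Females were compared with males over both diets. Of the members 0 had an adjusted p under 0.05 in edgeR or in DESeq2, where 0.0302% of all genes did in edgeR. Tlr13 had an unadjusted p under 0.05 and was higher in females, where 3.09% of all genes were. It stood at 4.64, 8.09, 5.55 and 4.09 CPM in female vehicle libraries and at 4.52, 3.85, 2.65 and 2.91 CPM in male vehicle libraries, which overlapped in 1 library each. With rapamycin it stood at 4.29, 5.38, 2.65 and 3.24 CPM in females and at 4.01, 2.31, 2.90 and 4.22 CPM in males. Its log2 difference, female minus male, was 0.46 (95% interval 0.06 to 0.86, adjusted p = 0.810 in edgeR), and 0.63 without the library labelled male rapamycin 4 (adjusted p = 0.465 in edgeR). Tlr7, X-linked like Tlr13, differed by 0.26 (adjusted p = 0.833 in edgeR) and the autosomal Tlr6 by 0.64 (0.832). Beside these, 8 of 16 microglial markers had an unadjusted p under 0.05 and were higher in females, with a list median of 0.33, and 0 had an adjusted p under 0.05. With the microglial score as a covariate the sex difference of Tlr1, Tlr2, Cd14 and Myd88 changed sign.

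The members were then set beside marker lists across libraries, after sex, diet and batch had been removed from log2 CPM. These are correlations over 16 libraries that share tissue dissection and depth, given as a description. Tlr13 followed the 16 microglial markers most closely (Pearson r = 0.87), followed by Tlr2 (0.80) and Tlr7 (0.73). Tlr3 (0.35), Tlr4 (0.40) and Tlr9 (0.42) followed them least. Tlr2 was also close to the 12 genes of plaque-associated microglia (0.89) and to the 6 astrocyte markers (0.85). Like Tlr2, the members Tlr6 (0.68), Tlr4 (0.65), Tlr3 (0.59) and Tlr9 (0.52) had a higher r with the astrocyte markers than with the microglial markers. By Spearman's rank correlation the order turned for Tlr9 (0.297 with the astrocyte and 0.332 with the microglial markers). The order held for Tlr2 and Tlr6, and at lower values for Tlr3 (0.385 and 0.179) and Tlr4 (0.318 and 0.259). The Pearson r of Tlr1, Tlr7, Tlr13, Cd14 and Myd88 was lower with the astrocyte markers. Tlr1 ran against the blood list (-0.83) and Tlr6 against the cortical neuron list (-0.76).

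**Figure D4:**
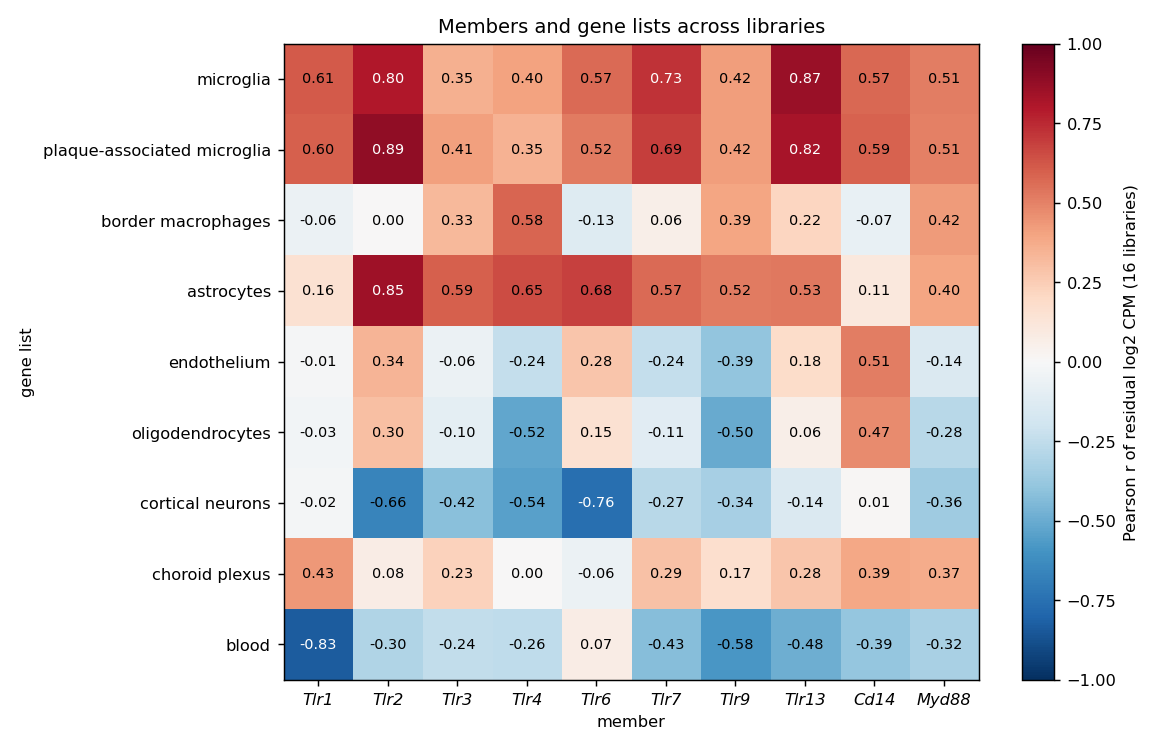
Pearson r, over 16 libraries, between each member (columns) and the mean of each marker list (rows), both as residual log2 CPM after sex, diet and batch. The columns of Tlr2, Tlr7 and Tlr13 are darkest red in the microglial rows (0.73 to 0.87 for microglia), and Tlr3, Tlr4 and Tlr9 are paler there.

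Tlr3, Tlr4, Tlr9 and Cd14 had the largest correlations with the mitochondrial share and the exon length slope in the same residuals. For Tlr3, Tlr4 and Tlr9 the correlations with the mitochondrial share were -0.51, -0.62 and -0.53 and with the exon length slope 0.56, 0.57 and 0.55. For Cd14 they had the opposite sign, at 0.37 with the mitochondrial share and -0.48 with the slope. Those of Tlr2 were 0.01 and 0.01, and those of Tlr13 0.07 and -0.12. The exon length slope ran from -0.13 to 0.06 in rapamycin libraries (median -0.02) and from 0.0004 to 0.10 in vehicle libraries (median 0.03). Like the mitochondrial share, it thus differed in the median between the diets. Whether either measure reflects RNA quality or rapamycin was not tested.

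The genes whose residuals were most like each member were taken from 14689 genes with a mean of at least 1 CPM. Tlr13 was nearest to Laptm5 (Pearson r = 0.93), a lysosomal membrane protein of haematopoietic cells, and had the transcription factor Ikzf1 (0.90) among its 3 nearest. Tlr7 was nearest to Lair1 (0.91), an inhibitory receptor of leukocytes, and had Clec5a (0.89), a myeloid lectin, among its 3 nearest. Tlr2 was nearest to Abhd4 (0.94), Gfap (0.92), the intermediate filament of astrocytes, and Pla2g7 (0.91). Tlr1 was nearest to the inflammasome adaptor Pycard (0.89), and had Lgals9 (0.84), a galectin, among its 3 nearest. Cd14 was nearest to H2-D1 (0.90), H2-K1 (0.89) and B2m (0.85), which together make up the class I antigen-presenting molecules. The nearest genes of Tlr3 (Thap2), Tlr4 (4833439L19Rik), Tlr6 (Pla2g16), Tlr9 (Rab2b) and Myd88 (Gfod2) had r of 0.90, 0.93, 0.94, 0.96 and 0.91.

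Of the microglial list itself, 1 of 16 tested genes (Fcrls, a receptor-like protein of homeostatic microglia, by 0.64 on the log2 scale, adjusted p = 0.0250) fell with rapamycin over both sexes and 0 rose in edgeR, with 14 of 16 log2 fold changes below 0 and a median of -0.13. Of the plaque-associated list 0 of 12 passed, with 11 below 0 and a median of -0.29. Over all genes tested, 13.3% passed in either direction and 47.7% had a log2 fold change below 0. With the microglial score as a covariate, the log2 fold change of Tlr2 was -0.48 and that of Tlr13 -0.01. The plaque-associated markers summed to 586 to 1251 CPM with rapamycin (median 892) and to 827 to 1693 CPM with vehicle (median 1095).

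The 4 other Toll-like receptor genes were Tlr5, Tlr8, Tlr11 and Tlr12. Tlr12, a mouse receptor of profilin, fell with rapamycin by 0.89 on the log2 scale (SE 0.28, adjusted p = 0.0464 in edgeR). It stood at 2.05, 2.26, 2.01 and 2.58 CPM in female vehicle libraries and at 1.43, 1.69, 1.16 and 0.93 CPM in female rapamycin libraries. The female diets did not overlap, and for how many of all genes that holds was not counted. In males Tlr12 stood at 1.96, 1.75, 1.21 and 1.90 CPM with vehicle and at 1.03, 0.83, 0.12 and 1.49 CPM with rapamycin, where 1 library of each diet crossed. Its call was weak: the adjusted p of edgeR ran from 0.0254 to 0.0826 over the 16 fits that each left out 1 library, and was under 0.05 in 3 of them. With a covariate its adjusted p was 0.754 (exon length slope) or 0.537 (mitochondrial share) in edgeR, at log2 fold changes of -1.52 and -1.66. Tlr12 did not pass there, but no gene of the whole table was a DEG with either covariate. Tlr5, the receptor of flagellin, had a log2 fold change of -0.71 (adjusted p = 0.338 in edgeR). Tlr8 and Tlr11 held 26 and 6 read pairs over all libraries and were not tested.

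The counts of the lists that follow stand beside the 13.3% of all genes that passed the same test in either direction. Among 10 co-receptors and trafficking genes 1 fell and 0 rose over both sexes, with a list median of -0.23. The gene that fell was Cd180, a receptor homologue without a signalling domain that pairs with Ly86. Cd180 ranged from 5.36 to 16.5 CPM with vehicle (median 8.10) and from 1.99 to 7.34 CPM with rapamycin (median 4.41), and fell by 0.94 on the log2 scale (SE 0.25, adjusted p = 0.0252 in edgeR). Without 1 library its adjusted p in edgeR ran from 0.0119 to 0.0644 and was under 0.05 in 14 of 16 fits. As a covariate, the exon length slope gave Cd180 a log2 fold change of -1.25 (adjusted p = 0.761 in edgeR) and the mitochondrial share -1.27 (0.567). Cd180 did not pass there, but no gene of the whole table was a DEG with either covariate. Ly96, the partner of Tlr4, was at 0.52 CPM with vehicle and 0.65 CPM with rapamycin in the median, with a log2 fold change of 0.24 (adjusted p = 0.718 in edgeR). Unc93b1, which carries the endosomal receptors, had a log2 fold change of -0.21 (adjusted p = 0.219 in edgeR).

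Among the 5 other adaptors 0 passed the adjusted test in edgeR, with a median log2 fold change of -0.19. At an unadjusted p under 0.05 there were 2, where 5039 of 16553 genes were under it in either direction. The values of edgeR were 0.11 for Tirap, -0.01 for Ticam1, -0.47 for Ticam2, -0.19 for Sarm1 (adjusted p = 0.0950) and -0.37 for Pik3ap1 (adjusted p = 0.151). Ticam1 is the adaptor that Tlr3 uses in place of Myd88.

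Of 16 kinases and ubiquitin ligases 1 fell and 0 rose, with a median log2 fold change of -0.01. The gene that fell was Tab3, a subunit that binds ubiquitin chains for the kinase Map3k7, by 0.27 on the log2 scale (adjusted p = 0.0391 in edgeR). The Irak kinases had log2 fold changes of 0.11 for Irak1, 0.19 for Irak2 and -0.0043 for Irak4, and Irak3, an inhibitory member, -0.13. None of these 4 passed the test in edgeR, the smallest adjusted p being 0.191 for Irak2.

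Of 10 transcription factors 0 passed in edgeR, with a median log2 fold change of -0.02. Irf3, which acts downstream of Tlr3 and Tlr4, had a log2 fold change of 0.37 (adjusted p = 0.0624 in edgeR) and Irf7, which acts downstream of Tlr7 and Tlr9, -0.61 (adjusted p = 0.148). Irf8 had -0.38 (adjusted p = 0.182 in edgeR), Irf5 -0.17 (0.588) and Irf1 0.10 (0.708).

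Of 12 inhibitors of the pathway 1 rose and 0 fell, with a median log2 fold change of -0.01. The gene that rose was Nfkbia, which holds NF-kB in the cytoplasm and is itself a target of NF-kB and of the glucocorticoid receptor. Nfkbia ranged from 11.5 to 23.7 CPM with vehicle (median 15.3) and from 13.3 to 37.5 CPM with rapamycin (median 26.5), and rose by 0.75 on the log2 scale (SE 0.17, adjusted p = 0.0160 in edgeR). It passed in all 16 fits that each left out 1 library. As a covariate, the exon length slope gave Nfkbia a log2 fold change of 0.31 (adjusted p = 0.951 in edgeR) and the mitochondrial share 0.62 (0.615). Nfkbia did not pass there, but no gene of the whole table was a DEG with either covariate.

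Of 18 cytokines and other targets of the pathway 10 could be tested, and 0 passed in edgeR at an adjusted p under 0.05. There were also 0 at an unadjusted p under 0.05, where 5039 of 16553 genes were under it. Tnf, Il6, Il12b, Ifnb1, Ccl2, Ccl5, Cxcl1 and Cxcl2 did not pass the filter on low counts. The largest log2 fold changes among those tested were -0.93 for the chemokine Cxcl10 (adjusted p = 0.211 in edgeR), -0.75 for the chemokine Ccl4 (0.206) and 0.60 for the cytokine Il1b (0.261). Of 6 endogenous ligands 4 were tested, and Hmgb1, a chromatin protein that binds Tlr2 and Tlr4 when released, rose by 0.29 on the log2 scale (adjusted p = 0.0319 in edgeR), while 0 fell. These lists were chosen with earlier results of the data known.

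Markers of other cell types were counted in the same test. Of the 6 choroid plexus markers 2 fell (Sostdc1 and Kcnj13) and 0 rose in edgeR, with a list median of -1.62 and a summed level of 24.6 to 190 CPM with rapamycin and 14.1 to 1924 CPM with vehicle. Of the 6 astrocyte markers 1 rose (Aldoc) and 0 fell, with a list median of 0.26. Of the 6 endothelial markers 1 rose (Ly6c1) and 0 fell, and of the 6 oligodendrocyte and 5 blood markers 0 passed. Of the 6 border macrophage markers tested 0 passed, at a summed level of 4.74 to 16.8 CPM with rapamycin and 4.52 to 17.5 CPM with vehicle. The part of these cells in the members' differences was not tested.

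**Figure D5:**
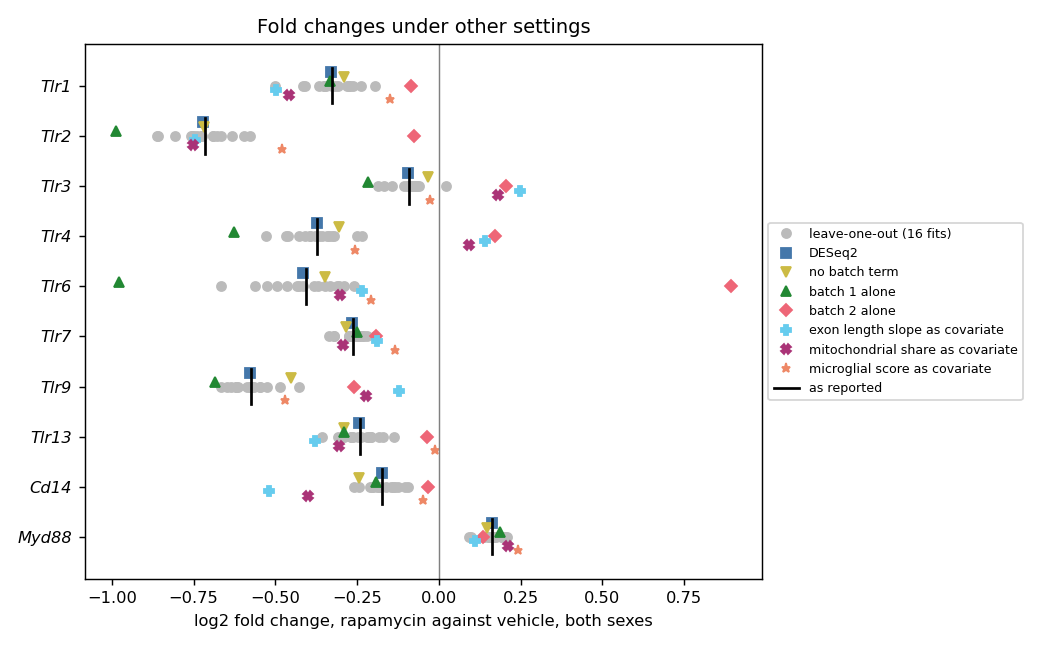
Log2 fold change of each member, rapamycin against vehicle over both sexes, as reported (black line) and under other settings (coloured symbols), with the 16 fits that each leave out 1 library in grey. Tlr2 stays below 0 in all settings, at its weakest -0.08 in batch 2 alone, and Tlr3, Tlr4 and Tlr6 cross 0 in some.

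The dependence of each member on single libraries was shown by leaving out each library in turn. Tlr2 ran from -0.86 to -0.58 over these 16 fits, Tlr9 from -0.67 to -0.43, Tlr7 from -0.33 to -0.19 and Myd88 from 0.09 to 0.21. The direction of 9 members was the same in all 16 fits, and that of Tlr3 turned to 0.02 without male rapamycin 2. That library held 455 read pairs over the 10 members, the lowest of all libraries, against 565 to 1046 in the others.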

How the data were processed

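Deposited by the authors for 16 cortical libraries were counts of read pairs on each gene, without normalization. Per the study's methods and processing notes, they used FastQC 0.11.9, Trimmomatic 0.39, HISAT2 2.2.1 against GRCm38 (mm10) and featureCounts 2.0.3 on Ensembl genes without strand. Tables per group repeated these counts with 0 differing cells.

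From these counts, filterByExpr (minimum count 10) kept 16553 genes, which were normalized with TMM and tested in R 4.3.3 by the quasi-likelihood test of edgeR 4.0.16. Terms were sex, diet and batch for both sexes and for sex, and group and batch otherwise. SE is the log2 fold change divided by the root of F. DEGs of all genes had an adjusted p (Benjamini-Hochberg over all genes) under 0.05 and a 1.5-fold change, while members were counted by adjusted p alone. A prior count of 2 entered log2 CPM. On simulated counts the test recovered 182 of 200 changed genes with 6 false calls. Recovery at the members' own read counts and log2 fold changes was not tested. The members and lists were chosen with earlier results of these data known. The text names all members, list genes past the threshold, other receptors and adaptors, Ly96, Irak and Irf genes, and the 3 genes most like each member, of which some are not reported here. Other genes named (Unc93b1, Cxcl10, Ccl4, Il1b) were chosen after their values were seen. DESeq2 1.42.0 was the alternative test. Figures used matplotlib 3.10.9.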

Additional observations from a re-analysis of the deposited data

Results flagged for a closer look

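Among 40 tests of a member in a group of 4 libraries, 1 group held a library far from the others, where chance gives about 1 in 20. Tlr2 in male vehicle 4 was at 2.74 CPM, against 4.95, 4.96 and 5.23 CPM in the other male vehicle libraries, a gap of 0.889 of the group's range. Male vehicle 4 is the only male vehicle library of batch 2 and also had the highest sum of choroid plexus markers, 1924 CPM.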

How the results depend on the processing

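Over both sexes, 0 members had an adjusted p under 0.05 in edgeR. That count was 2 with DESeq2 (Tlr2 and Tlr9), 1 (Tlr2) with no filter on low counts, 1 (Tlr2) in batch 1 alone, 1 (Tlr2) when both batch 2 libraries labelled male were left out, an alternative chosen after seeing the data, and 0 to 1 when 1 library was left out. The share of all genes with an adjusted p under 0.05 was not counted for these alternatives. In the other 4 comparisons the count of members was 0 under every alternative run. The cause of these shifts was not tested. Counting alone gives coefficients of variation of 18.9% to 26.8% for Tlr1, Tlr4 and Tlr6, at medians of 13 to 29.5 read pairs.

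Counts of DEGs over all genes moved more. Over both sexes there were 374, and 2205 with no fold threshold, 563 with a log2 threshold of 0.5, 586 with no filter, 36 with no batch term, 3 in batch 2 alone, 0 with the exon length slope and 0 with the mitochondrial share as a covariate, 47 without female rapamycin 2 and male rapamycin 2 (chosen after seeing the data), and 156 (without female rapamycin 1) to 571 (without female rapamycin 4) when 1 library was left out. In females there were 2, and 806 with no filter, 573 with DESeq2, 977 in batch 1 alone and 267 with the microglial score. Females had 1 with no batch term, 1 with the exon length slope, 1 with the mitochondrial share, and 1 to 941 with 1 library left out. In males there were 0, and 347 with no filter, 16 with DESeq2, 1 with the replicate block, and 0 to 1 with 1 library left out. The interaction had 0, and 87 with no filter. Females against males had 5, and 76 with no filter, 9 with DESeq2, 8 in batch 1 alone, 3 with the replicate block and 10 without both batch 2 libraries labelled male.

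Signs of single members turned in these fits. Over both sexes, Tlr3 was 0.20 in batch 2 alone, 0.25 with the exon length slope, 0.18 with the mitochondrial share, 0.052 without female rapamycin 2 and male rapamycin 2, and -0.19 to 0.021 with 1 library left out. Tlr4 was 0.17, 0.14 and 0.091 in the first 3 of these, and Tlr6 was 0.89 in batch 2 alone. In females, Tlr3 was -0.22 in batch 1 alone and -0.13 to 0.091 with 1 library left out. In males, the exon length slope gave 0.12 for Tlr3 and 0.25 for Tlr4, the mitochondrial share 0.071 and 0.38, and the microglial score 0.027 for Tlr1, 0.093 for Tlr13 and 0.027 for Cd14. With 1 library left out, male values ran from -0.45 to 0.17 for Tlr1, -0.39 to 0.0038 for Tlr3, -0.27 to 0.21 for Tlr4, -0.26 to 0.067 for Tlr7, -0.31 to 0.15 for Tlr13, -0.26 to 0.12 for Cd14 and -0.0056 to 0.21 for Myd88. The interaction of Tlr2 was -0.00034 with no filter, -0.0037 with the exon length slope and -0.23 to 0.56 with 1 library left out. Females against males turned with the microglial score for Tlr1 (-0.17), Tlr2 (-0.30), Cd14 (-0.054) and Myd88 (-0.016), and with the mitochondrial share for Tlr3 (0.020) and Tlr4 (0.12). Ordered by CPM with no length, 4 of 10 members held their place, which follows from the lengths.

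Libraries with the same replicate number in 2 groups had residual correlations of -0.157 to 0.675 over 21 pairs, of which 18 but not all were over 0.1, and of -0.392 to 0.328 with batch removed. No label ties libraries of the same number, and the numbers were not taken to pair them. With the replicate block in place of batch, 0 members had an adjusted p under 0.05 in any comparison, and Tlr2 over both sexes was -0.71 with an adjusted p of 0.105 in edgeR.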
